A study of Mus musculus with 11 samples.

Results

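The genes described here encode the enzymes of glycolysis and the genes known to answer low oxygen through hypoxia-inducible factor (HIF), measured in mouse epiblast stem cells (EpiSCs) with and without 3 hours of G-CSF. The members were defined by a list of 43 gene symbols, taken for their known roles while earlier results of these data were known. It named 18 glycolytic enzymes and 25 HIF-responsive genes, the latter with the HIF subunits themselves. Of the 43, 31 were measured, 13 enzymes and 18 HIF-responsive genes, among 11208 features on the arrays. Hk1, Hk2, Gpi1, Eno1 and Ldhb of the enzymes, and Pfkfb3, Bnip3, Car9, Higd1a, Mxi1, Adm and Epas1 of the HIF-responsive genes, were not analysed here. No filter on low values was applied to the 15718 probes of the deposited values, so all 31 were tested. Whether probes had been left out before deposit was not examined.

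Gene expression was measured on 11 Illumina arrays with total RNA of EpiSCs of strain 129xMF1, all cultured in N2B27 with Activin and Fgf. The 4 groups were EpiSCs carrying GY118F, without G-CSF (n = 3) or after 3 hours of it (n = 2), and control EpiSCs, likewise without G-CSF (n = 3) or after 3 hours of it (n = 3). GY118F is a transgene for a chimeric receptor built from the outer part of the receptor for G-CSF and the gp130 signalling domain, with the tyrosine that recruits Shp2 replaced, and G-CSF activates the transcription factor STAT3 through it; the labels list no transgene for the control EpiSCs. The labels do not say whether a line is a single clone or whether replicates were separate cultures, and p-values therefore reflect only how these samples scatter, which may be technical. They describe no culture kept alongside for the same time without G-CSF, so G-CSF and the handling that went with it cannot be told apart within a line.

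Glycolysis splits glucose into pyruvate, which lactate dehydrogenase turns into lactate or mitochondria oxidize. HIF is a pair of a regulated alpha subunit, such as Hif1a, and the constant partner Arnt. With oxygen present, prolyl hydroxylases of the Egln family mark the alpha subunit for destruction, and in low oxygen it accumulates and switches on glucose transporters, nearly every glycolytic enzyme, Vegfa and Egln3. Postimplantation epiblast and the EpiSCs that resemble it are known to rely strongly on glycolysis.

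HIF binds a short element whose core reads ACGTG or GCGTG, and upstream sequences are shown for 4 members. They are 2 enzymes and a prolyl hydroxylase that fell in both lines, and a kinase that rose in both. The 250 bases before the start of transcription come from RefSeq (GRCm38.p6), read along the gene's strand 5′ to 3′, and capitals mark every match to the core on either strand. The Pgk1 window is chrX:106186850-106187099 (plus strand), that of Ldha chr7:46845554-46845803 (plus strand), that of Egln3 chr12:54203875-54204124 (minus strand) and that of Ak4 chr4:101419039-101419288 (plus strand).
Pgk1: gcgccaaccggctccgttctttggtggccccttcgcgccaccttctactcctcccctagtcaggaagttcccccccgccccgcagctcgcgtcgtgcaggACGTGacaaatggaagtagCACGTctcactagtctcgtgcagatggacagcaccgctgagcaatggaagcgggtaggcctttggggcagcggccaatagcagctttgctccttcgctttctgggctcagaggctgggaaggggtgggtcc
Ldha: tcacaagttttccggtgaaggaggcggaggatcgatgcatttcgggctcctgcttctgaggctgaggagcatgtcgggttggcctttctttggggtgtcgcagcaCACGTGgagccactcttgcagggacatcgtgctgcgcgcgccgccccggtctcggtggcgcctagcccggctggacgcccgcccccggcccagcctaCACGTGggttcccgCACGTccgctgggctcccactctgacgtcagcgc
Egln3: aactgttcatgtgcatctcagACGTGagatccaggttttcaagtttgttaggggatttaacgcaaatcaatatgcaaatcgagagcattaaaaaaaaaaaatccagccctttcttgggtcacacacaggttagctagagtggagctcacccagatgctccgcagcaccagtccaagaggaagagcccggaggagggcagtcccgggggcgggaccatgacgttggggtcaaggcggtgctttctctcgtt
Ak4: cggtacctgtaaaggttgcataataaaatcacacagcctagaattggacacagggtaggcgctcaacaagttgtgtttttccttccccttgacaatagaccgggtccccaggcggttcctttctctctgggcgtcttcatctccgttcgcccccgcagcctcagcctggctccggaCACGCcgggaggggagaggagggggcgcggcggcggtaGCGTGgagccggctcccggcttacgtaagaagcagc

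Upstream windows were found for 27 of the 31 members; Bhlhe40, Bnip3l, Ndrg1 and Slc2a3 had no entry. At least 1 match to ACGTG or GCGTG, on either strand, lay upstream of a listed start in 25 of the 27 members (92.6%), against 62.6% of all 7498 genes measured on the arrays that have a window, members included. With the first listed start of each gene only, the shares were 81.5% and 58%. The core overlaps CACGTG, the element of MYC and other E-box factors, which was found in 4 of the 27 members and in 10% of the 7498 genes. Each window printed above holds a match. Eno2 and Tpi1, which fell in both lines, had none, nor did the first listed windows of Aldoa, Pkm and Vegfa, which fell too. A match was present in 17 of the 19 windowed members that fell in both lines and in 8 of the 8 other windowed members. It thus did not separate those that fell from the rest. These matches are a description of letters and show no binding.

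The first question was what happened to these genes when G-CSF was given for 3 hours to the line that carries the receptor. Transcripts of the pathway fell: 24 of the 31 members were called lower and 2 higher (limma, Benjamini-Hochberg adjusted p under 0.05 over all features), where 21.9% of all features were called lower and 17.8% higher (39.8% in either direction). Among the enzymes 13 of 13 fell, with a median log2 change of -0.57, and among the HIF-responsive genes 11 of 18 fell, with a median of -0.40; the median of all features was -0.01. The falls reached 1.4-fold, the size the study itself used as its threshold, in 17 members, against 4.21% of all features, and 1 member rose as far, against 4.18%. In 27 members every array with G-CSF lay below every array without it and in 3 above, against 30.6% and 26.6% of all features. The shares of all features given here and below were not matched to the members in brightness. Of the 31 members 10, among them 7 enzymes, had a mean over the 90th percentile of feature means. The list was also made with earlier results of these data known.

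The second question was what the same 3 hours with G-CSF brought in EpiSCs without the receptor, and the answer was nearly the same list of falls. Of the 31 members 22 were called lower and 1 higher in control EpiSCs, where 22.6% of all features were called lower and 19.5% higher (42.1% in either direction). There 11 of the 13 enzymes fell, with a median of -0.50, and 11 of the 18 HIF-responsive genes, with a median of -0.42, while the median of all features was 0.00. In 15 members the fall passed 1.4-fold, against 4.22% of all features, and no member rose as far, against 3.22%. Arrays with and without G-CSF did not overlap in 25 members that were lower and 1 that was higher, against 28.7% and 24.9% of all features. The 22 members that fell in control EpiSCs were all among the 24 that fell in GY118F EpiSCs, whereas 15.5% of all features fell in both lines. The 2 comparisons share no array, but 1 estimate of each gene's spread serves both.

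**Figure D1:**
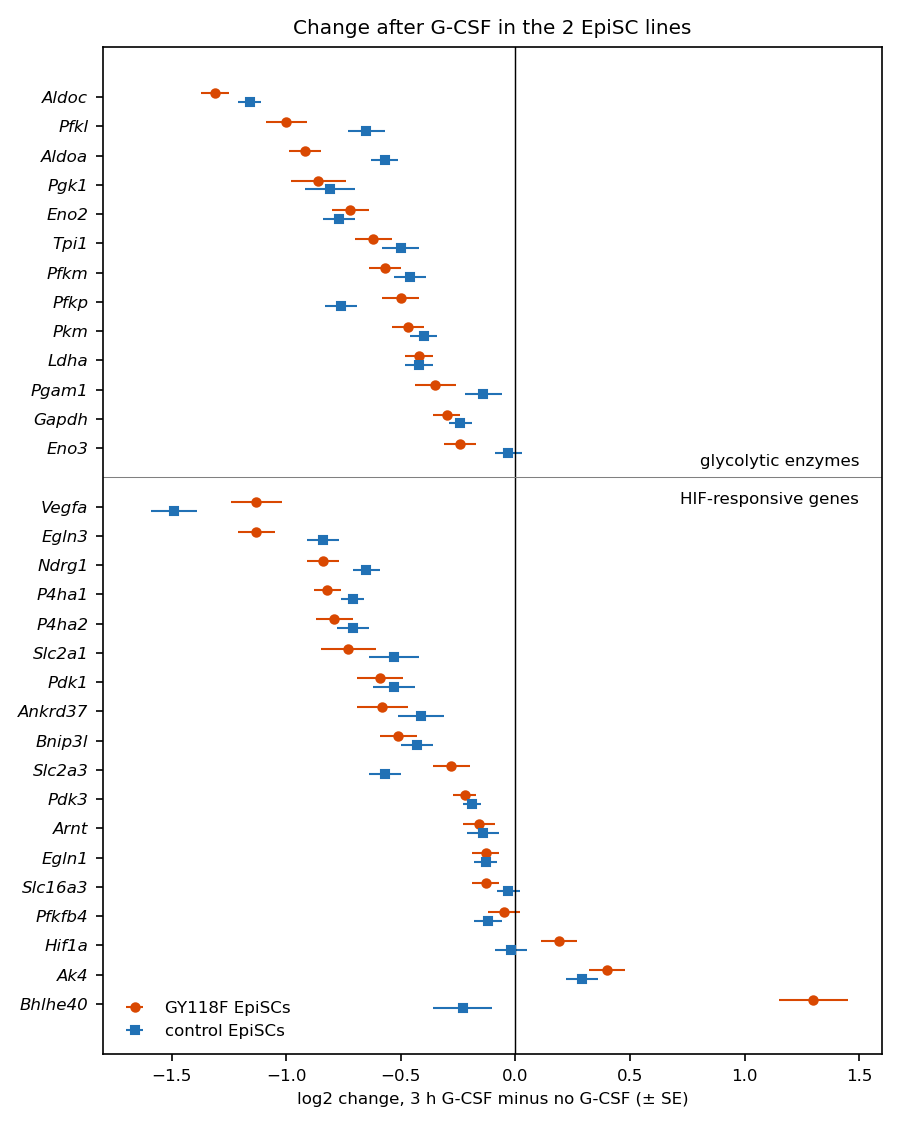
The plot shows, for each of the 31 members, the log2 change after 3 hours of G-CSF (horizontal axis, bars are SE) in GY118F EpiSCs (orange circles) and control EpiSCs (blue squares). Most points lie left of 0 in both lines, Ak4 lies right of 0 in both, and Bhlhe40 stands at 1.30 in GY118F EpiSCs and at -0.23 in control EpiSCs.

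The receptor itself answered as labelled. Socs3, the feedback inhibitor that STAT3 induces, stood at 8.96, 8.94 and 8.98 without G-CSF and at 11.99 and 11.94 with it in GY118F EpiSCs, against 8.19, 8.22 and 8.27 and then 8.05, 8.01 and 8.11 in control EpiSCs. The fall of the pathway was therefore measured side by side in a line where Socs3 rose by 3.00 and in a line where it fell by 0.17.

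Averaged over the 13 enzymes, the array values of GY118F EpiSCs were 11.31, 11.39 and 11.32 without G-CSF and 10.70 and 10.71 with it. In control EpiSCs the same mean was 11.50, 11.46 and 11.50 without G-CSF and 10.98, 10.98 and 10.91 with it. Averaged over the 18 HIF-responsive genes, GY118F EpiSCs stood at 9.15, 9.25 and 9.33 and then at 8.91 and 8.88, and control EpiSCs at 9.33, 9.28 and 9.28 and then at 8.89, 8.90 and 8.86. On both means, in each line, every array with G-CSF was below every array without it. The values are relative to the other transcripts of an array, which had been quantile-normalized, and in such bulk samples fewer cells of a type and less RNA per cell cannot be told apart.

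**Figure D2:**
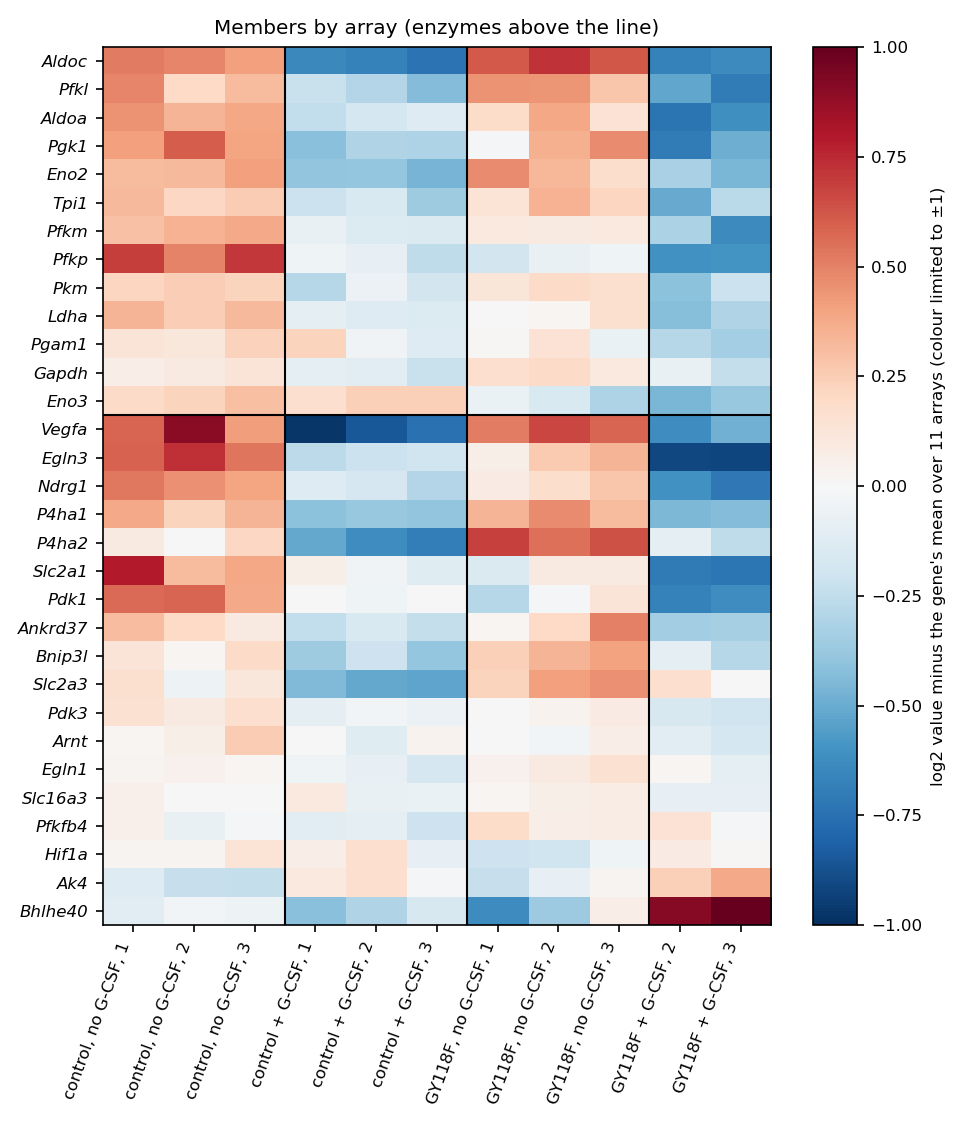
Each row is a member and each column an array, and the colour gives the log2 value minus the gene's mean over the 11 arrays (red above, blue below, limited to 1 either way). Columns with G-CSF are blue in most enzyme rows and in the upper rows of the HIF-responsive genes in both lines, while the Bhlhe40 row is deep red in the GY118F arrays with G-CSF and Eno3 separates the lines rather than the treatment.

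Among the 13 measured enzymes Aldoc, one of the aldolases that split fructose 1,6-bisphosphate, fell furthest in each line. It stood at 10.35, 10.46 and 10.36 in GY118F EpiSCs without G-CSF and at 9.06 and 9.10 with it, and at 10.26, 10.23 and 10.15 and then 9.09, 9.06 and 9.0 in control EpiSCs. This was a fall to 40.3% of the unstimulated level in GY118F EpiSCs (log2 change -1.31 ± 0.06, SE; limma adjusted p = 5.70e-09) and to 44.7% in control EpiSCs (-1.16 ± 0.05, SE; limma adjusted p = 5.90e-09), with no overlap between arrays with and without G-CSF. Aldoa, the more widely expressed aldolase, was 12.61, 12.81 and 12.57 before and 11.69 and 11.81 after G-CSF in GY118F EpiSCs, a change of -0.92 ± 0.07 (SE; limma adjusted p = 1.23e-06). In control EpiSCs it went from 12.87, 12.76 and 12.81 to 12.18, 12.25 and 12.29, a change of -0.57 ± 0.06 (SE; limma adjusted p = 1.71e-05).

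Phosphofructokinase commits sugar to glycolysis, and its 3 subunit genes fell in both lines. Pfkl was 12.57, 12.56 and 12.40 without and 11.60 and 11.42 with G-CSF in GY118F EpiSCs, a fall to 50% (-1.0 ± 0.09, SE; limma adjusted p = 4.67e-06). In control EpiSCs it was 12.61, 12.32 and 12.44 without and 11.90, 11.83 and 11.69 with G-CSF, a fall to 63.7% (-0.65 ± 0.08, SE). Pfkp, the platelet-type subunit, changed by -0.50 in GY118F EpiSCs, from 8.0, 8.11 and 8.14 to 7.58 and 7.59, and by -0.76 in control EpiSCs, from 8.88, 8.68 and 8.89 to 8.14, 8.10 and 7.93. Control arrays with G-CSF thus lay at about the level of GY118F arrays without it. The muscle-type Pfkm fell by 0.57 and 0.46.

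Below the aldolases, Pgk1, which makes the first ATP of the pathway, was 12.27, 12.64 and 12.76 in GY118F EpiSCs without G-CSF and 11.59 and 11.80 with it (-0.86 ± 0.12, SE), and 12.70, 12.89 and 12.68 against 11.87, 11.99 and 11.98 in control EpiSCs (-0.81 ± 0.11, SE). Eno2, an enolase known from neurons, went from 8.37, 8.23 and 8.07 to 7.57 and 7.44 in GY118F EpiSCs and from 8.21, 8.22 and 8.31 to 7.5, 7.51 and 7.43 in control EpiSCs, changes of -0.72 and -0.77. Its values with G-CSF were under the 25th percentile of all values, 7.62, where the change may be understated. Tpi1, which interconverts the triose phosphates, fell by 0.62 and 0.50.

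Pyruvate kinase and lactate dehydrogenase, the last enzymes of the route to lactate, also fell in both lines. Pkm was 12.66, 12.73 and 12.70 before and 12.13 and 12.32 after G-CSF in GY118F EpiSCs, and 12.75, 12.78 and 12.76 before and 12.25, 12.48 and 12.35 after in control EpiSCs, changes of -0.47 ± 0.07 and -0.40 ± 0.06 (SE). Ldha moved from 13.67, 13.70 and 13.84 to 13.25 and 13.38 in GY118F EpiSCs and from 14.02, 13.92 and 14.00 to 13.58, 13.55 and 13.54 in control EpiSCs. The Ldha change was -0.42 ± 0.06 (SE) in both lines, to 74.7% and 74.5% of the level before, with limma adjusted p of 0.000187 and 6.17e-05. Gapdh, often used as a reference gene, fell by 0.30 in GY118F and by 0.24 in control EpiSCs (limma adjusted p = 0.00164 and 0.00348).

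Pgam1 and Eno3 were the enzymes without a call in control EpiSCs. Pgam1, a phosphoglycerate mutase, changed by -0.35 in GY118F EpiSCs (limma adjusted p = 0.00873) and stood at -0.14 in control EpiSCs (limma adjusted p = 0.185). Eno3, the muscle enolase, changed by -0.24 (limma adjusted p = 0.0124) and stood at -0.03 (limma adjusted p = 0.714). These GY118F calls rested on single arrays: without GY118F G-CSF replicate 3 the adjusted p for Pgam1 was 0.0596, and without GY118F G-CSF replicate 2 that for Eno3 was 0.0972. Pgam1 was called lower in control EpiSCs too without control G-CSF replicate 1 (-0.24, limma adjusted p = 0.0127) or with array weights (limma adjusted p = 0.0478).

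**Figure D3:**
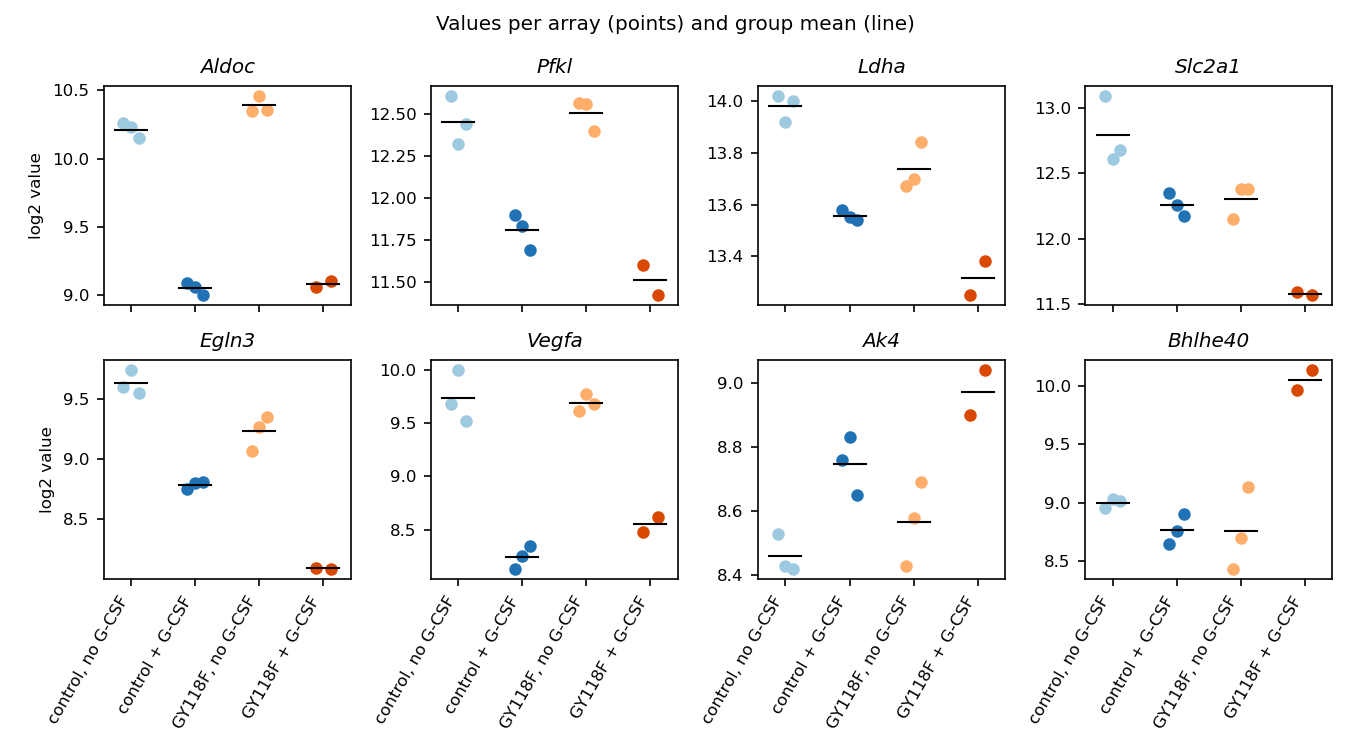
Log2 values of 8 members on each of the 11 arrays (points) with group means (lines); the vertical scales differ between panels and do not start at 0. Aldoc, Pfkl, Ldha, Slc2a1, Egln3 and Vegfa are lower with G-CSF in both lines without overlap, Ak4 is higher in both, and Bhlhe40 is high in the 2 GY118F arrays with G-CSF alone.

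Glucose enters these cells through the facilitative transporters GLUT1 and GLUT3, encoded by Slc2a1 and Slc2a3. Slc2a1 was 12.15, 12.38 and 12.38 without and 11.59 and 11.57 with G-CSF in GY118F EpiSCs (-0.73 ± 0.12, SE; limma adjusted p = 0.000424), and 13.09, 12.61 and 12.68 without and 12.35, 12.26 and 12.17 with it in control EpiSCs (-0.53 ± 0.11, SE; limma adjusted p = 0.00151). Slc2a3 fell by 0.57 ± 0.07 (SE) in control EpiSCs and by 0.28 ± 0.08 (SE) in GY118F EpiSCs (limma adjusted p = 5.79e-05 and 0.0173). The GY118F call for Slc2a3 was lost without GY118F G-CSF replicate 3 (-0.19, limma adjusted p = 0.177) and without unstimulated GY118F replicate 2 or 3 (0.0575 and 0.0535), and when low values were set to the 25th percentile (0.0513). Slc16a3, which exports lactate, had a mean of 7.48, under the 25th percentile of all values, and was called in neither line (-0.13 and -0.03), though in GY118F EpiSCs it was called without control G-CSF replicate 1 (limma adjusted p = 0.0366) and with trend and robust moderation (0.0420).

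The kinases that steer pyruvate away from mitochondria fell together. Pdk1, which inactivates pyruvate dehydrogenase and is a classic HIF target, went from 8.54, 8.81 and 8.95 to 8.15 and 8.20 in GY118F EpiSCs and from 9.39, 9.41 and 9.20 to 8.82, 8.78 and 8.82 in control EpiSCs. Its changes were -0.59 ± 0.10 and -0.53 ± 0.09 (SE), with limma adjusted p of 0.000379 and 0.000320. Its relative Pdk3 changed by -0.22 and -0.19. Pfkfb4, which makes the phosphofructokinase activator fructose 2,6-bisphosphate, stood at -0.05 and -0.12 without a call.

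Egln3, the oxygen-sensing hydroxylase that HIF itself induces, had one of the largest changes. It was 9.07, 9.27 and 9.35 in GY118F EpiSCs without G-CSF and 8.10 and 8.09 with it, a fall to 45.5% (-1.13 ± 0.08, SE; limma adjusted p = 4.11e-07). In control EpiSCs it was 9.60, 9.74 and 9.55 without and 8.75, 8.80 and 8.81 with G-CSF, a fall to 55.8% (-0.84 ± 0.07, SE; limma adjusted p = 1.43e-06). Every array with G-CSF lay below every array without it, across both lines. Egln1, the main hydroxylase of resting cells, had a mean of 7.46 near the floor and stood at -0.13 in both lines (limma adjusted p = 0.0879 and 0.0569). With trend and robust moderation Egln1 was called lower in both lines (limma adjusted p = 0.0498 and 0.0286), and in control EpiSCs also with array weights (0.0242) and without control G-CSF replicate 1 (-0.16, limma adjusted p = 0.0405).

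Vegfa, the secreted vascular growth factor, had the largest fall of all members in control EpiSCs. Its values there were 9.68, 10.00 and 9.52 without and 8.13, 8.25 and 8.35 with G-CSF, a fall to 35.6% (-1.49 ± 0.10, SE; limma adjusted p = 2.62e-07). In GY118F EpiSCs they were 9.61, 9.77 and 9.68 and then 8.48 and 8.62, a fall to 45.6% (-1.13 ± 0.11, SE; limma adjusted p = 7.51e-06). A second Vegfa probe changed by -0.82 and -0.58 in the same order.

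P4ha1 and P4ha2 encode the catalytic subunits of collagen prolyl hydroxylase, and both fell. P4ha1 went from 8.66, 8.79 and 8.64 to 7.87 and 7.89 in GY118F EpiSCs and from 8.70, 8.54 and 8.66 to 7.91, 7.94 and 7.93 in control EpiSCs. Its changes were -0.82 ± 0.06 and -0.71 ± 0.05 (SE; limma adjusted p = 6.50e-07 and 6.54e-07). P4ha2 went from 9.53, 9.39 and 9.48 to 8.75 and 8.59 and from 8.93, 8.85 and 9.05 to 8.33, 8.22 and 8.15, changes of -0.79 and -0.71.

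Of the remaining targets, Ndrg1, a stress-responsive gene long used as a hypoxia marker, went from 8.38, 8.47 and 8.57 to 7.69 and 7.58 in GY118F EpiSCs and from 8.82, 8.75 and 8.69 to 8.17, 8.13 and 8.0 in control EpiSCs. That is -0.84 ± 0.07 and -0.65 ± 0.06 (SE; limma adjusted p = 2.25e-06 and 5.33e-06). The mitophagy receptor gene Bnip3l changed by -0.51 and -0.43, and Ankrd37, an ankyrin-repeat gene induced in hypoxia, by -0.58 and -0.41. Among the HIF-responsive genes 9 members fell over 1.4-fold in GY118F EpiSCs and 8 in control EpiSCs, against 4.21% and 4.22% of all features. Bnip3l (1.35-fold) and Ankrd37 (1.33-fold) did not reach that size in control EpiSCs.

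Ak4, a mitochondrial adenylate kinase that HIF can induce, went the other way. It was 8.43, 8.58 and 8.69 without and 8.90 and 9.04 with G-CSF in GY118F EpiSCs (0.40 ± 0.08, SE; limma adjusted p = 0.00156), and 8.53, 8.43 and 8.42 without and 8.76, 8.83 and 8.65 with it in control EpiSCs (0.29 ± 0.07, SE; limma adjusted p = 0.00644). The arrays did not overlap in either line, and neither rise reached 1.4-fold.

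The HIF subunits themselves were not called in either line. Hif1a was 8.49, 8.50 and 8.66 without and 8.78 and 8.71 with G-CSF in GY118F EpiSCs (0.19 ± 0.08, SE; limma adjusted p = 0.0620), and 8.73, 8.73 and 8.84 and then 8.77, 8.87 and 8.62 in control EpiSCs (-0.02 ± 0.07, SE). Without unstimulated GY118F replicate 3 the GY118F change was 0.25 and called (limma adjusted p = 0.0232), as it was without control G-CSF replicate 2 or 3 (0.0490 and 0.0355). Arnt was 9.17, 9.15 and 9.24 and then 9.06 and 9.0 in GY118F EpiSCs (-0.16), and 9.19, 9.23 and 9.43 and then 9.18, 9.05 and 9.21 in control EpiSCs (-0.14). The Arnt fall in control EpiSCs was called with the titles' replicate numbers as a block (limma adjusted p = 0.0433). HIF is controlled mainly through the stability of its alpha protein, which arrays do not measure.

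The third question was whether the change differed between the lines, tested directly as the difference of the G-CSF effects. Bhlhe40 was the single member called, 1 of 31, where 3.85% of all features were called with a higher and 2.14% with a lower change in GY118F than in control EpiSCs. Bhlhe40, a basic helix-loop-helix repressor that answers hypoxia, cytokines and the circadian clock, rose in GY118F EpiSCs from 8.43, 8.70 and 9.13 to 9.97 and 10.14 (1.30 ± 0.15, SE; limma adjusted p = 2.18e-05). In control EpiSCs it was 8.95, 9.03 and 9.01 without and 8.64, 8.76 and 8.90 with G-CSF (-0.23 ± 0.13, SE; limma adjusted p = 0.194). The difference was 1.53 ± 0.20 (SE; 95% interval 1.10 to 1.96; limma adjusted p = 0.000526). The 2 GY118F arrays with G-CSF were above all 9 others, and unstimulated GY118F replicate 3 was the highest of the rest. The fall in control EpiSCs was called when only control arrays were fitted (limma adjusted p = 0.0196) and without unstimulated GY118F replicate 3 (0.0398).

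For the other 30 members the difference of effects was between -0.35 and 0.36 and was not called. Its 95% interval ran from -0.18 to 0.19 for Ldha, from -0.40 to 0.30 for Pgk1, from -0.31 to 0.01 for Aldoc and from -0.34 to 0.22 for Pdk1, which leaves differences of those sizes possible. The widest departures toward a deeper fall in GY118F EpiSCs were Pfkl (-0.35, interval -0.62 to -0.08) and Aldoa (-0.35, interval -0.55 to -0.14), and toward a deeper fall in control EpiSCs Vegfa (0.36, interval 0.03 to 0.68) and Slc2a3 (0.29, interval 0.05 to 0.53). Aldoa was called with array weights (-0.40, limma adjusted p = 0.0238) and without unstimulated GY118F replicate 3 (-0.39, 0.0272). Egln3 was called without unstimulated GY118F replicate 1 (-0.37, limma adjusted p = 0.0296), and Pfkl with the titles' replicate numbers as a block (limma adjusted p = 0.0264).

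**Figure D4:**
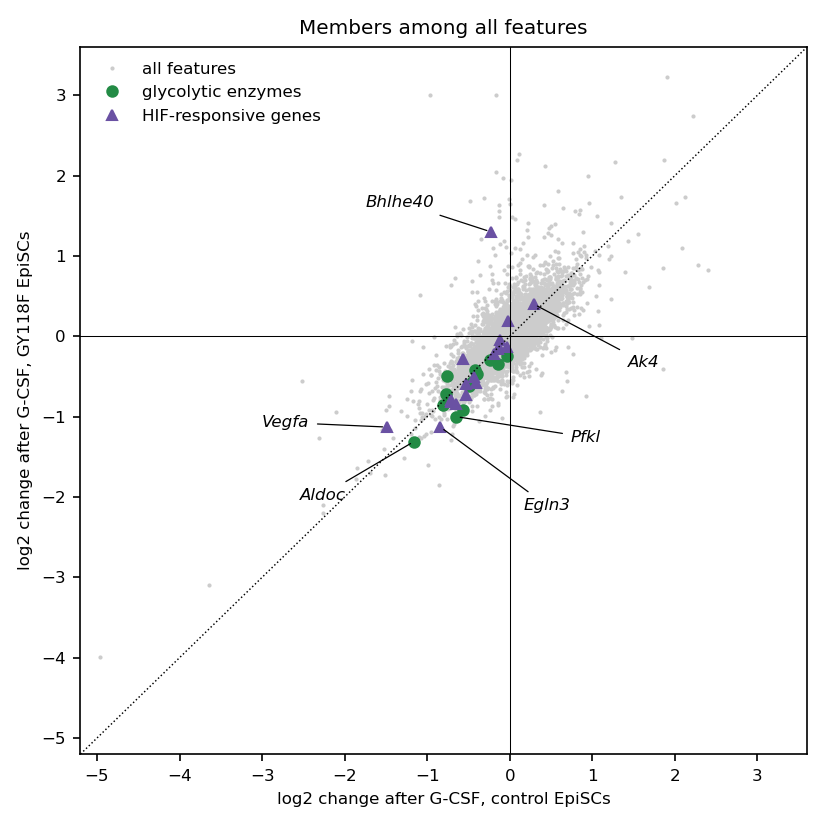
Each point is a feature, with its log2 change after G-CSF in control EpiSCs on the horizontal and in GY118F EpiSCs on the vertical axis; grey points are all 11208 features, green circles enzymes and purple triangles HIF-responsive genes, and the dotted line marks equal change. Members gather below and left of 0 along the dotted line, and Bhlhe40 lies at 1.30 on the vertical and -0.23 on the horizontal axis.

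The lines were compared before G-CSF as well, where the members' calls lay nearer to the background of all features. GY118F EpiSCs were called lower than control EpiSCs in 9 of the 31 members and higher in 4, where 16.5% of all features were called lower and 16.7% higher (33.2% in either direction). Arrays of the lines did not overlap in 11 members lower and 6 higher in GY118F EpiSCs, against 22.6% and 22.9% of all features. Pfkp was lower by 0.73 (-0.73 ± 0.07, SE; limma adjusted p = 4.01e-06), Pdk1 by 0.57, Slc2a1 by 0.49, Eno3 by 0.42, Egln3 by 0.40, Ndrg1 by 0.28, Pfkm and Ldha by 0.24 and Hif1a by 0.22. P4ha2 was higher by 0.52, Slc2a3 by 0.29, Bnip3l by 0.21 and Aldoc by 0.18. Leaving out single arrays ended the calls of Aldoc (GY118F replicate 2 or control replicate 3, limma adjusted p = 0.0640 and 0.0636), Hif1a (GY118F replicate 1 or 2 or control replicate 3, 0.0894 to 0.103) and Bnip3l (GY118F replicate 2 or 3 or control replicate 1 or 2, 0.0653 to 0.131). The Ndrg1 call was lost with its probe of largest variance (-0.19, limma adjusted p = 0.170), and the second P4ha2 probe gave 0.26. Leaving out arrays made calls of a lower level for Aldoa without GY118F replicate 2 (-0.22, limma adjusted p = 0.0144), and for Pgk1 (-0.31, 0.0408) and Bhlhe40 (-0.43, 0.00311) without GY118F replicate 3; Bhlhe40 was also called with array weights (-0.28, 0.0462), and Pdk3 with low values set to the 25th percentile (-0.10, 0.0289) and with array weights (-0.11, 0.0494). The glucose transporters thus differed in opposite directions: Slc2a1 was lower in GY118F EpiSCs by 0.49 ± 0.11 (SE; limma adjusted p = 0.00331), and Slc2a3 higher by 0.29 ± 0.07 (SE; limma adjusted p = 0.00860).

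The lines were also compared with G-CSF present, on arrays other than those of the comparison before it. GY118F EpiSCs were lower in 11 of 31 members and higher in 5, where 14.4% and 15.6% of all features were called (29.9% in either direction). Arrays did not overlap in 16 lower and 6 higher members, against 25.3% of all features in either sense. Slc2a1 was then lower by 0.68 and Slc2a3 higher by 0.58, Egln3 lower by 0.69, Pdk1 and Eno3 by 0.63, Aldoa by 0.49, Pfkp and Ndrg1 by 0.47, Pfkm by 0.36, Pgam1 by 0.33, Pfkl by 0.30 and Ldha by 0.24. Bhlhe40 was higher by 1.29, P4ha2 by 0.44, Ak4 by 0.23 and Pfkfb4 by 0.20. For Aldoc no difference was called (0.03, 95% interval -0.09 to 0.15). The call of Ak4 was lost under many of the alternatives (without GY118F replicate 3, limma adjusted p = 0.292) and that of Pfkfb4 under several (without GY118F replicate 2, 0.328), that of Ldha without GY118F replicate 2 (0.138), that of Pgam1 without GY118F replicate 2 or 3 (0.0509 and 0.0815), and that of Pfkl without GY118F replicate 3 or control replicate 1 or 2 (0.0741 to 0.228). Calls were gained by Pgk1, lower under the replicate block (-0.32, limma adjusted p = 0.0341), with only the groups compared (-0.25, 0.0456) and without unstimulated GY118F replicate 1 (0.0371), and by Pdk3, lower with low values set to the 25th percentile (-0.12, 0.0205). Vegfa was called higher under the titles' block (0.29, limma adjusted p = 0.0408), with only the groups compared (0.31, 0.0233), without the dimmer features (0.0497) and without control unstimulated replicate 2 or 3 or control G-CSF replicate 3 (0.0114, 0.0313 and 0.0495). The second P4ha2 probe was not called (0.12, limma adjusted p = 0.349).

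Other genes of the pathways were read from lists made by function. Of 21 measured further HIF targets, 11 fell and 3 rose in GY118F EpiSCs, with a median of -0.24. In control EpiSCs 11 fell and 4 rose, with a median of -0.21. Of all features 21.9% fell and 17.8% rose in GY118F EpiSCs, and 22.6% fell and 19.5% rose in control EpiSCs. Ddit4, an inhibitor of mTORC1 that hypoxia and other stresses induce, changed by -2.20 and -2.27 (GY118F, then control EpiSCs), the secreted stanniocalcins Stc2 by -1.52 and -1.28 and Stc1 by -1.03 and -0.90, and the mitochondrial Fam162a by -0.96 and -0.79. Stc2 and Ddit4 are also known targets of the amino acid stress factor ATF4. Cited2, which competes with HIF for its coactivator, and the lipid droplet gene Hilpda were the 2 of the 21 whose change differed between lines, at -0.15 against 0.44 for Cited2 and -0.22 against 0.13 for Hilpda; they were chosen after their values were seen. Both of these differences were lost without GY118F G-CSF replicate 2 (limma adjusted p = 0.0623 and 0.0755), and that of Cited2 also with low values set to the 25th percentile (0.0576). Within GY118F EpiSCs Cited2 was called lower under the replicate block (-0.22, limma adjusted p = 0.00930), and the Hilpda call was lost without G-CSF replicate 2 (-0.18, 0.0732). In control EpiSCs Hilpda was called higher under the titles' block (0.0430), with low values set to the 25th percentile (0.0491), with array weights (0.15, 0.0134), without unstimulated GY118F replicate 2 (0.0463) and without control G-CSF replicate 1 (0.17, limma adjusted p = 0.0238).

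Neighbouring routes of sugar metabolism were read in the same way. Of all features 21.9% and 22.6% were called lower, and 17.8% and 19.5% higher, in GY118F and control EpiSCs. The difference of these routes from the members was not tested. Of 20 measured genes of pyruvate dehydrogenase and the citrate cycle, 4 fell and none rose in GY118F EpiSCs, and 4 fell and 1 rose in control EpiSCs, with changes from -0.27 to 0.21 over both lines. Of 8 pentose phosphate genes, 3 fell in each line and 1 rose in control EpiSCs. Of 7 genes of glycogen and gluconeogenesis, 2 fell in each line and 1 rose in GY118F EpiSCs, and Pgm1, which links glucose 1-phosphate to glycolysis, changed by -1.05 and -1.08. Of 5 further glycolysis genes, 3 fell in each line, none by more than 0.40. Among 10 measured genes of HIF degradation and its cofactors, 3 rose in GY118F EpiSCs, and 1 rose and 3 fell in control EpiSCs.

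Of the 31 members 19 were read by a single probe, and the other 12 had 15 further probes. Of these 15, 10 were called lower in GY118F and 8 in control EpiSCs, and none was called higher in either line. The dimmer probes of Pfkl (-0.12 and -0.08) and Pgam1 (-0.04 and 0.09) were not called, with means of 7.43 and 7.46 near the floor of the arrays. A second Pgk1 probe, of mean 7.54, was called in GY118F EpiSCs (-0.21) and not in control EpiSCs (-0.04), and so was a second Tpi1 probe, of mean 8.22 (-0.20 and 0.00).

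Markers of the cells moved with the groups as well. Of 12 EpiSC markers 9 were measured, and Pou5f1 had a mean of 12.31 and Dnmt3b of 13.62 over the arrays. The mean of the 9 was 9.41 to 9.65 in GY118F EpiSCs without G-CSF and 9.85 to 9.92 with it, and 10.20 to 10.32 and then 10.48 to 10.53 in control EpiSCs. Its members did not move as one: Nodal (1.65), Eomes (0.80), Fgf5 (0.60), Otx2 (0.48) and Pou5f1 (0.29) rose in GY118F EpiSCs, Dnmt3b fell (-0.37, limma adjusted p = 0.0158), and Nanog, Sox2 and Zic2 were not called. In control EpiSCs Eomes (1.39), Sox2 (0.45), Fgf5 (0.38) and Pou5f1 (0.24) rose and the other 5 were not called. Before G-CSF Nodal (-2.44), Otx2 (-2.09), Fgf5 (-1.41), Nanog (-0.90) and Pou5f1 (-0.74) were lower in GY118F than in control EpiSCs. Sox2 was higher (0.51), and Dnmt3b, Zic2 and Eomes were not called. Nodal was uneven in GY118F EpiSCs without G-CSF, at 7.86, 7.75 and 9.07. The mean of 4 of 6 trophoblast markers was 8.21 to 8.27 and then 8.84 to 8.88, and 8.0 to 8.04 and then 8.39 to 8.48, in the same order. Of these 4, Tfap2c (1.99 and 0.95) and Cdx2 (0.46 and 1.23) rose in both lines, Krt8 was not called in GY118F EpiSCs (0.07) and fell in control EpiSCs (-0.43, limma adjusted p = 1.06e-05), and Krt7 was called in neither (-0.04 and -0.07). Over all arrays the mean was 7.74 to 8.04 for 2 of 7 fibroblast markers and 7.31 to 7.74 for 2 of 5 endoderm markers. It was 7.82 to 8.25 for 3 of 5 neural progenitor markers, and none of 4 haematopoietic markers was measured. Genes of these lists did not all move alike. Thy1 fell in both lines (-0.29 in GY118F and -0.49 in control EpiSCs), whereas Dcn rose in GY118F EpiSCs alone (0.42). Nes rose in both lines (0.44 and 0.40), Hes5 fell in GY118F EpiSCs alone (-0.26), and Zic1, Sox17 and Gata6 were not called. Before G-CSF Thy1 (-0.82) and Gata6 (-0.44) were lower, and Dcn (0.38), Zic1 (0.46) and Hes5 (0.29) higher, in GY118F than in control EpiSCs. The part of these shifts in the falls above was not tested. Pairs of arrays within a group had an r of 0.994 to 0.998 over the features, pairs from different groups 0.96 to 0.982, and values ran from 7.11 to 15.22.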

How the data were processed

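Total RNA (Qiagen RNeasy) was labelled with biotin (Illumina TotalPrep-96), per the labels' protocols. The authors deposited log2 values, which lumi produced, per the submitters' processing notes; its version, the background correction and whether the log2 was plain or variance-stabilized are not given in the sources used here, and in the latter case changes of dim genes are understated. The sorted values of the 11 arrays differ by at most 0.00116, so they had been quantile-normalized. Of 15718 probes, 13711 had 1 gene symbol in GEO's platform annotation, 5 had several and 2002 none; symbols were checked against RefSeq by gene number, which changed 0. The probe with the highest mean stood for each symbol, and unnamed probes were kept, giving 11208 features.

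All 11 arrays were fitted together with limma 3.58.1 (lmFit, eBayes; R 4.3.3) in 4 groups with no block, two-sided, Benjamini-Hochberg over all features, threshold 0.05. Stimulated GY118F arrays carry replicate numbers 2 and 3 from their source names (titles: 1 and 2). Genes given in every array are the 6 enzymes and 8 HIF-responsive genes with the largest changes, and a few key members. So are members that rose or differed between lines. Genes of the other pathway lists are named at a change of at least 0.8. Cited2, Hilpda, Plod2, Hif3a, Hif1an and Wsb1 are named outside that rule. Members and lists were chosen with earlier results of these data known. The fit was tested on simulated data. Intervals are 95% intervals of the moderated fit. The number of arrays limits the precision. Alternatives were replicate blocks, only the groups compared, other probe choices, a filter and a floor on dim values, cyclic loess, other moderation, array weights, stricter thresholds and leaving out each array.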

Additional observations from a re-analysis of the deposited data

Results flagged for a closer look

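Among the members, the pathway lists, Socs3 and Stat3, the change after G-CSF differed between the lines for 5 genes. The test was that of the difference (limma Benjamini-Hochberg adjusted p under 0.05). Bhlhe40 had a higher change in GY118F than in control EpiSCs, by 1.53, Socs3 by 3.18 and Stat3 by 2.21, and the latter pair are the known responders of the receptor's pathway. Cited2 (-0.59) and Hilpda (-0.35) had a lower change in GY118F than in control EpiSCs. Cell type markers were left out of this count. By the same test Nodal (1.64), Tfap2c (1.05), Krt8 (0.5) and Otx2 (0.39) had a higher change in GY118F EpiSCs. Cdx2 (-0.77) and Hes5 (-0.3) had a lower one. Groups held 2 or 3 arrays, too few for a test of single arrays that stand apart.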

How the results depend on the processing

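The alternatives were run for the members, the other pathway genes named, Socs3 and Stat3, and not for the cell type markers. The fit of only the groups compared was not run for the difference of effects. Over the 5 comparisons 4805 of 4966 values kept their side of the threshold. A call was lost for 112 and gained for 49, and 0 called values reversed direction. Changes of sign without a call in either fit were counted as kept. With the replicate block the members called lower stayed at 24 in GY118F and 22 in control EpiSCs after G-CSF (24 and 23 with the titles' numbers). Same-numbered arrays deviated from their group means with correlations of -0.47 to 0.54 over 15 pairs, 7 of them over 0.1. Deviations within groups of 2 or 3 arrays are tied to each other, and the titles' numbers were not checked this way. Whether the numbers pair the samples therefore cannot be told from these correlations. Leaving out each array gave 22 to 25 and 22 to 24 members called lower, with enzyme medians of -0.57 to -0.50 and -0.55 to -0.44 and HIF-responsive medians of -0.47 to -0.31 and -0.47 to -0.37.

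Requiring 1.4-fold left 1 member higher in GY118F and 0 in control EpiSCs, 3 lower and 1 higher in GY118F against control EpiSCs before G-CSF, and 5 lower and 2 higher with it. An adjusted p under 0.01 left 2 higher before and 3 higher with G-CSF, and the floor and array weights each left 3 higher with it. Leaving out each array gave 2 to 4 higher before and 3 to 5 with G-CSF. A lower change in GY118F EpiSCs was called for 1 member in place of 0 with the titles' block (Pfkl) and with array weights (Aldoa), and for 0 to 1 when each array was left out. For these count changes the cause was not tested, apart from the stricter thresholds. No detection calls were used, so changes of genes near the floor are the least certain.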

Other observations

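Beyond the members, genes of the HIF pathway differed between the lines, and those given here were chosen after their values were seen. Plod2, the collagen lysyl hydroxylase that HIF induces beside P4ha1 and P4ha2, differed by -3.21 between GY118F and control EpiSCs before G-CSF (limma adjusted p = 5.04e-12) and by -2.93 with it, whereas P4ha2 was higher by 0.52 and 0.44 (by its second probe 0.26, and 0.12 without a call). Cited2 was higher in GY118F EpiSCs by 1.86 and 1.28. Hif3a, an alpha subunit that can act as an inhibitor of the others, differed by -1.31 before G-CSF (limma adjusted p = 1.25e-05) and by -0.72 with it, and changed by -0.71 after G-CSF in control EpiSCs (limma adjusted p = 0.00137) and by -0.12, without a call, in GY118F EpiSCs; that difference of effects was not called (0.59, limma adjusted p = 0.145), though it was with the titles' replicate numbers as a block (0.60, 0.0448), and the difference with G-CSF was not called without GY118F replicate 2 (-0.54, 0.0599).

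Hif1an, which hydroxylates HIF and blocks its coactivator, rose by 0.42 in GY118F and by 0.29 in control EpiSCs (limma adjusted p = 0.000673 and 0.00319). Wsb1, a ubiquitin ligase subunit listed here among HIF targets, rose by 0.71 and 0.49.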
